A study of Mus musculus with 3 samples.

Results

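The serine/arginine-rich (SR) splicing factors were followed across 3 one-colour arrays of NIH3T3 cells, an established mouse fibroblast line. One array held cells with no compound (None), one held cells given 20 μM AR7 and one held cells given 20 μM BMS614, both for 24 h. AR7 is the parent compound of a series that binds retinoic acid receptor α (RARα) and activates chaperone-mediated autophagy, the delivery of single proteins to lysosomes, and BMS614 is a selective RARα antagonist. Both compounds were dissolved in DMSO, and the label of the None array names no vehicle. Each condition had 1 array and all 3 arrays lay on one slide, so no difference between conditions could be tested, and every comparison below is between arrays. AR7 and BMS614 were compared with the same None array, so these 2 comparisons are not independent. Of 10 SR genes listed (Srsf1, Srsf2, Srsf3, Srsf4, Srsf5, Srsf6, Srsf7, Srsf9, Srsf10 and Srsf11), 9 had matched probes, 18 in all out of 55681 probes on the array, and no probe was matched to Srsf11. The family was taken up because one Srsf10 probe stood out between AR7 and None, so the values of that probe describe how it was chosen and support nothing by themselves.

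SR proteins carry RNA recognition motifs and a tail rich in arginine-serine repeats. They bind enhancer sequences in exons, recruit the spliceosome to nearby splice sites and take part in mRNA export. SRPK and CLK kinases phosphorylate the tail, which governs nuclear import and release from nuclear speckles. Many SR genes limit their own level through a poison exon, whose inclusion sends the transcript to nonsense-mediated decay. Srsf10 is atypical, since it acts as a general splicing repressor when dephosphorylated in mitosis and after heat shock.

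Both compounds bind a retinoic acid receptor, so the member promoters were searched for the letters of its half-sites. Each window held 250 bases before to 50 bases after a RefSeq gene start (GRCm38.p6), and both strands were read. AGGTCA occurred in 2 of 13 member windows, those of Srsf3 and Srsf9, and in 5340 of 32851 windows of all genes (16.3%). AGTTCA occurred in 1 of 13, that of Srsf11, and in 4597 of 32851 windows of all genes. The Srsf10 window held neither. The stretches around the AGGTCA matches are shown because these are the member windows that carry it, with the match in capitals and each read 5′ to 3′ on the plus strand.
Srsf3, chr17:29032591-29032650: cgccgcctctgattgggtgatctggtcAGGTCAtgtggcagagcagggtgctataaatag
Srsf9, chr5:115326949-115327008: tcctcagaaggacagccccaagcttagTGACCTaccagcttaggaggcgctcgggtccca
The Srsf3 match lay 42 to 37 bases before the start on the strand of the gene. The Srsf9 match lay 201 to 196 bases before the start on the opposite strand, so its capitals are the reverse complement. These are matches of letters, not sites of binding.

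All 18 member probes were well above background on all 3 arrays, each from 1 spot, and none was saturated or marked as an outlier. Values below are log2 signals after background correction and quantile normalization, and each difference of a member probe given with ± carries the SD that the 10 spots of 266 repeated probes of like signal showed for the same difference. That SD covers variation between spots, not between cultures. The fibroblast markers were well above background, 10 of 10, with Vim at 16.96 on None, and of 4 epithelial markers Epcam and Krt18 were above background on 0 of 3 arrays. The other epithelial markers were above background on all 3, Cdh1 at 5.72, 5.54 and 5.67 and Krt8 at 7.36, 6.91 and 6.59 on None, AR7 and BMS614. Cd3e, a T cell marker, at 10.24 on None, and Pecam1, an endothelial marker, at 7.34, were also above background on all 3, while Ptprc and Cdh5 were on 1 of 3. Between AR7 and BMS614 all 10 fibroblast markers read lower with AR7, with a median of -0.0715 and 5 past 2 SD, against 25.2% of all probes. Cd3e read higher with AR7 there, by 0.25. The part of these markers in the results was not tested. The arrays differed in brightness before normalization, the 75th percentile of median spot intensity being 692 on None, 780.5 on AR7 and 909 on BMS614.

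Srsf10 was read by 3 probes, and one of them carried the difference. Probe c (A_51_P519592) had a log2 signal of 5.75 on None, 7.28 on AR7 and 6.22 on BMS614. Probe a (A_55_P1970389), the brightest, stood at 10.96, 10.99 and 10.90 on the same arrays. Probe b (A_55_P1978810) stood at 7.75, 7.65 and 7.85. AR7 was the highest array for probe c, with BMS614 between it and None, whereas for probes a and b the 3 arrays lay close together.

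For probe c, AR7 was higher than None by 1.53 ± 0.22 on the log2 scale, which is 2.88-fold, and BMS614 was higher than None by 0.47 ± 0.20. AR7 was higher than BMS614 by 1.05 ± 0.21. Probe a differed by 0.03 ± 0.06 between AR7 and None, and probe b by -0.10 ± 0.13, both within 2 SD. Probes a and c are annotated to the same RefSeq transcript, NM_010178, and probe b to NM_001080387, so the gene as a whole had no single difference. Across other scalings and background corrections the AR7 minus None difference of probe c ran from 0.73 to 1.68, and the lowest, with normexp background and an offset of 50, was under 2-fold. The BMS614 minus None difference was smallest, at 0.17, with the same setting and lay within 2 SD in 2 of 6 settings. The AR7 minus BMS614 difference ran from 0.562, again with normexp, to 1.018 in the other settings.

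**Figure D1:**
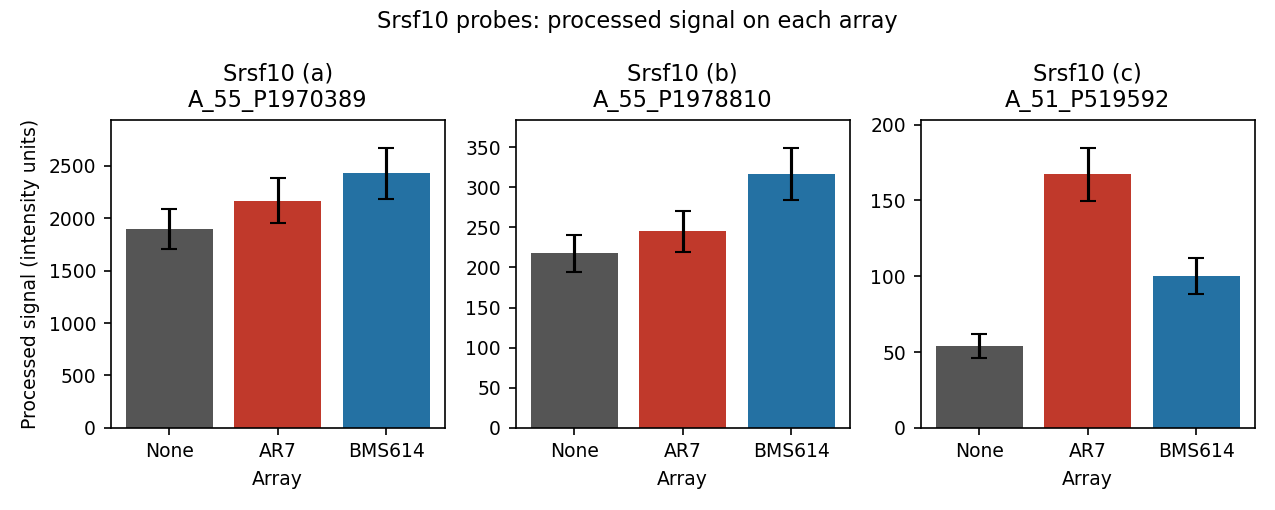
Processed signal of the 3 Srsf10 probes (vertical axes, linear units of the scanner software) on the None, AR7 and BMS614 arrays. Bars are single spots and error bars are the scanner software's own error; probe c goes from 53.98 on None to 167.1 on AR7, and probe a from 1900 to 2166.

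Probe c was dim. Its median spot intensity was 158 on None, 282 on AR7 and 218 on BMS614, against a local background of 45, 46.5 and 47. The processed signal of the scanner software was 53.98 ± 7.905 on None, 167.1 ± 17.67 on AR7 and 100.4 ± 11.85 on BMS614. The order of the arrays was thus the same in the processed signal. Among 4028 probes within 0.5 log2 units of its mean signal, 36 (0.894%) differed by 2-fold or more between AR7 and None, and 6 (0.149%) by at least as much as probe c. The 41 spots within 4 rows and 4 columns of it had a median difference of 0.0193, with 1 at 2-fold or more. Whether the spot itself or the piece of transcript it reads set this probe apart was not tested.

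Most genes on the array gave closer readings between probes. Over 453 genes with 3 probes well above background, the range of the AR7 minus None difference had a median of 0.186. The Srsf10 range was 1.63, the widest of the 453, against 0.148 for Srsf1 and 0.016 for Srsf3, which also have 3 probes. Probe c, for which the family was taken up, sets the Srsf10 range, so its rank restates that choice. For BMS614 minus None, 47 of the 453 genes (10.4%) had a range at least as wide as the 0.535 of Srsf10. Dim probes vary more than bright ones, and these ranges were not matched on signal.

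**Figure D2:**
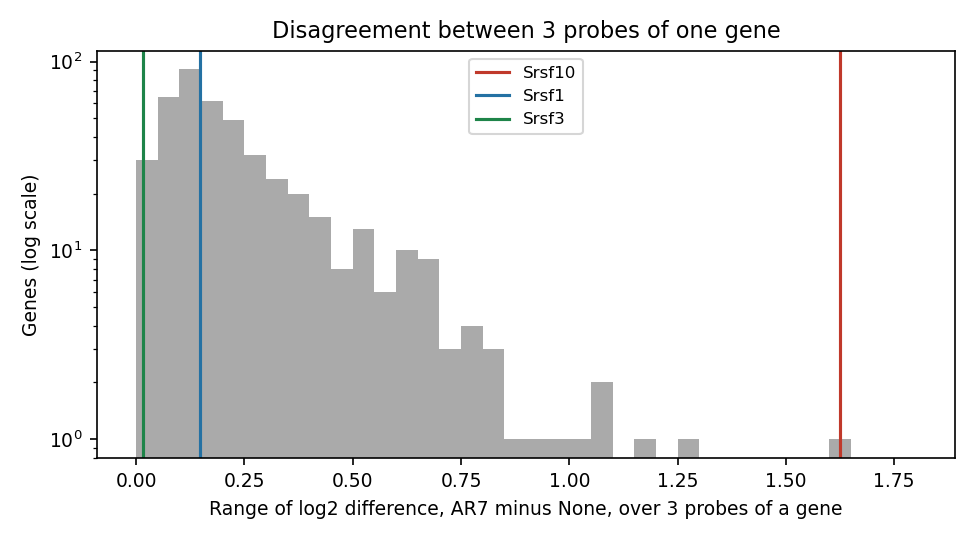
Number of genes (vertical axis, log scale) by the range of the log2 AR7 minus None difference over their 3 probes (horizontal axis), for 453 genes. Lines mark Srsf10 at 1.63, Srsf1 at 0.148 and Srsf3 at 0.016.

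The probes whose pair of differences lay closest to probe c, by straight-line distance over AR7 minus None and BMS614 minus None, were those of Nrsn1, Mrgpra2b, Gm4792, Gm3776 and Nupl1. The closest, Nrsn1, was higher by 1.61 with AR7 and by 0.67 with BMS614. None of the 5 genes had another probe well above background.

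Among the 18 member probes, 1 (5.56%) was 2-fold or more apart between AR7 and None, probe c of Srsf10, against 1.62% of all probes. Between BMS614 and None 0 of 18 were, against 1.82%, and between AR7 and BMS614 1 was, again probe c, against 1.66%. That last call was lost with the processed signal, with normexp and with the deposited table. Since the family was taken up for the AR7 value of probe c, the counts of both contrasts with AR7 are descriptions. Past 2 SD of repeated spots lay 5 member probes (27.8%) for AR7 minus None, against 17.7% of all probes. For BMS614 minus None 3 (16.7%) did, against 25.8%, and for AR7 minus BMS614 8 (44.4%), against 25.2%. These shares were not matched on signal, and 16 of the 18 members had a mean log2 signal of at least 9. For AR7 minus BMS614, all probes at a log2 signal of 12 to 13 had their middle 50% between -0.065 and 0.076. The SD of repeated spots at a mean signal of 12.21 was 0.0373, so the 44.4% is not read as an excess.

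**Figure D3:**
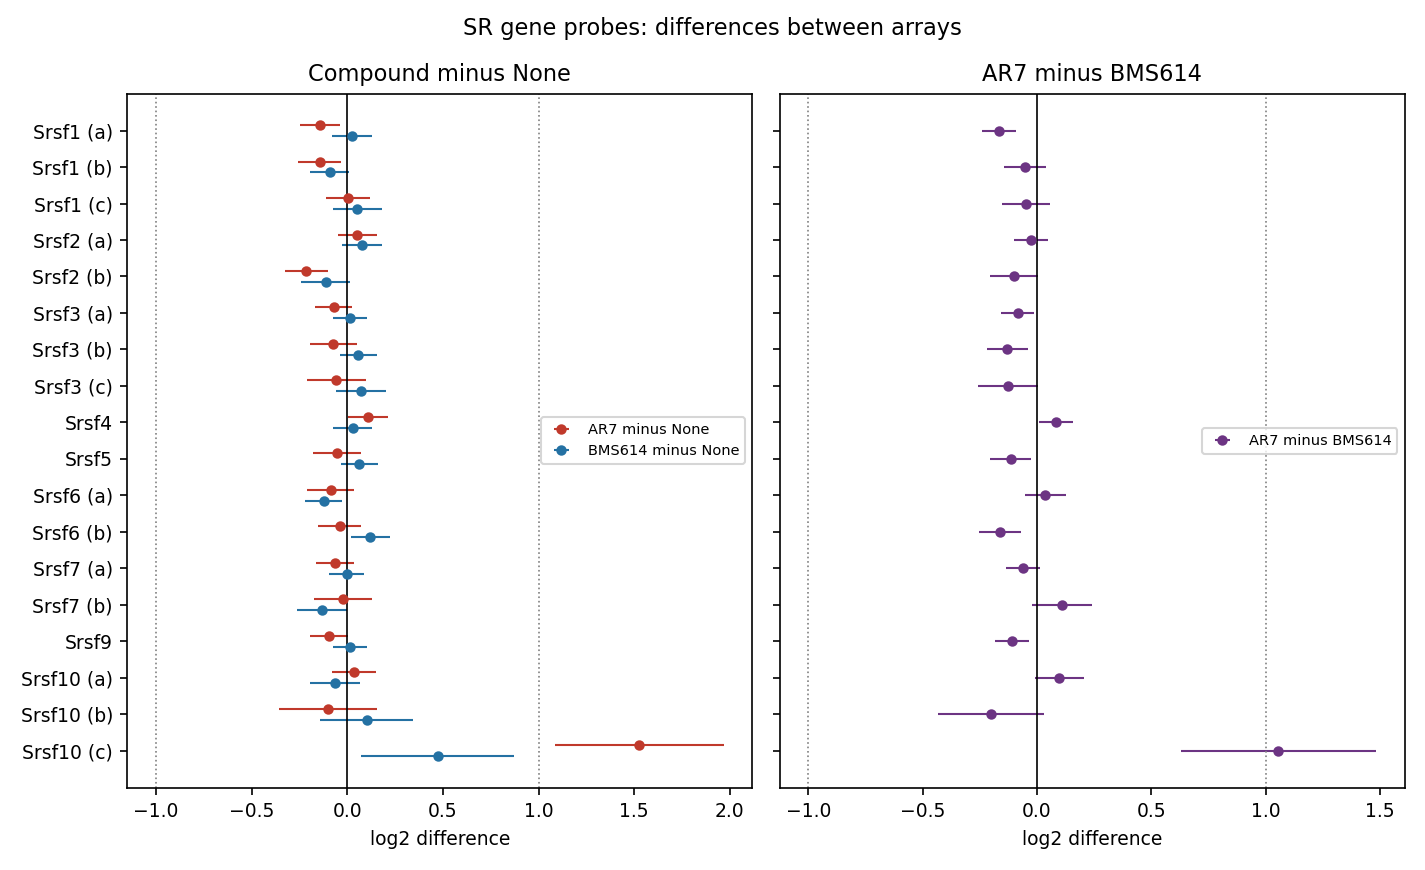
Log2 differences (horizontal axes) of the 18 SR probes, with AR7 minus None and BMS614 minus None on the left and AR7 minus BMS614 on the right. Bars are 2 SD of repeated spots and dotted lines mark 2-fold; probe c of Srsf10 at 1.53 is the only one past the dotted line on the left.

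Srsf1, the prototype of the family and a regulator of both constitutive and alternative splicing, read lower with AR7 on both brighter probes. Probe a was at 12.41 on None, 12.27 on AR7 and 12.43 on BMS614, so AR7 was the lowest array and the other two lay together. Probe b was lower with AR7 by 0.144 ± 0.055, and probe c differed by 0.004 ± 0.057. In other settings probe a lay within 2 SD in 1 of 6, at -0.036, and probe b in 2 of 6, at the smallest -0.035. Srsf2, an SR protein long used as a marker of nuclear speckles, had probes that disagreed. Its probe b was at 11.05, 10.84 and 10.94 on None, AR7 and BMS614, a difference of -0.213 ± 0.057 for AR7, while probe a differed by 0.053 ± 0.051.

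Srsf3 and Srsf7 are small SR proteins that also serve as adaptors for mRNA export. The 3 Srsf3 probes read close together, AR7 minus None lying between -0.072 and -0.056 and each within 2 SD. Against BMS614, AR7 was lower on Srsf3 probe a by 0.085 ± 0.037 and on probe b by 0.130 ± 0.045, both past 2 SD. Neither Srsf7 probe passed 2 SD in any comparison.

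Srsf4, Srsf5 and Srsf6 have paired RNA recognition motifs. Srsf4, read by 1 probe, was at 11.97 on None, 12.08 on AR7 and 12.00 on BMS614, so AR7 was the highest array, by 0.109 ± 0.051 over None. This difference lay within 2 SD in 4 of 6 other settings, and was 0.007 with the processed signal at the 75th percentile. Srsf5 was lower with AR7 than with BMS614 by 0.116 ± 0.045. The Srsf6 probes went opposite ways for BMS614 minus None, -0.123 ± 0.048 on probe a and 0.121 ± 0.051 on probe b. Srsf9, close in sequence to Srsf1, was lower with AR7 than with BMS614 by 0.109 ± 0.037, and by 0.094 ± 0.049 than None, within 2 SD.

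Over the 18 probes the median AR7 minus None difference was -0.0597, against -0.00518 over all probes, and 13 of 18 lay below 0. Of all probes 48.2% lay above 0. The 18 probes read only 9 genes, and by the brightest probe of each, 6 of the 9 lay below 0. Scaling on all spike-in controls gave a member median of -0.124 and scaling on the E1A spike-in controls alone 0.0345, but these scalings also moved the median of all probes, by -0.0596 and 0.0988. Relative to all probes the member median was -0.0545, and -0.0643 under both spike-in scalings. The spike-in values are equal by construction, as each scaling shifts all probes of an array alike. The median was 0.027 for BMS614 minus None and -0.0733 for AR7 minus BMS614, and the latter kept its sign under every scaling tried. The median absolute difference of the members was 0.0714, 0.0671 and 0.104 for the 3 comparisons, against 0.1, 0.116 and 0.106 over all probes. Since 16 of the 18 members had a mean log2 signal of at least 9, the closer baseline is the 14521 probes that bright, with 0.0628, 0.0747 and 0.0747.

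**Figure D4:**
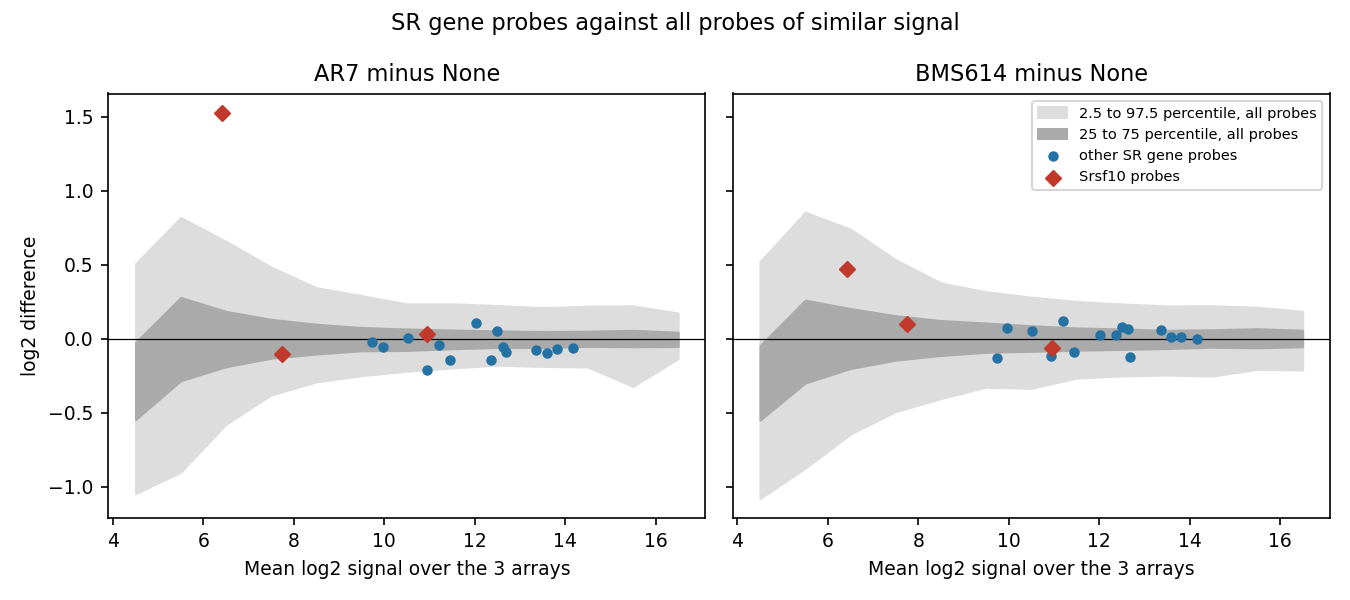
Log2 difference (vertical axes) against mean log2 signal (horizontal axes) for the SR probes, with bands holding the middle 50% and 95% of all probes well above background on all 3 arrays. Apart from probe c of Srsf10 (diamond, 1.53 for AR7 minus None), the members lie between -0.213 and 0.109 for AR7 minus None.

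Other genes of the splicing pathway were described by their brightest probe, and none of them was 2-fold apart in any comparison. Of 14 kinases, phosphatases and transport factors of SR proteins above background, 2 read higher and 12 lower with AR7 than None, with a median of -0.0692. Of all probes 48.2% read higher. Past 2 SD lay 2 of the 14, both lower, against 17.7% of all probes. Relative to all genes the list median was -0.0664, and -0.0576 under both spike-in scalings, which are equal here by construction. Clk4, a kinase of the SR tail, was at 10.54 on None, 10.31 on AR7 and 10.38 on BMS614, so None was the highest array. Both compounds stayed below None under every scaling tried. For BMS614 with the E1A controls alone, this holds after subtracting the shift of all probes, 0.235. The 17 other SR-like proteins had a median of 0.0477 for AR7 minus None and 0.0838 for AR7 minus BMS614. The AR7 minus None median ran from -0.0178 to 0.141 in other settings, and relative to all genes was 0.00748 with the processed signal. Acin1, an SR-like protein linked to the exon junction complex, was higher with AR7 by 0.17 ± 0.051 on its brightest probe and lower, at -0.137, on its other probe.

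The 10 nonsense-mediated decay factors had a median of 0.11 for AR7 minus None, with 7 of 10 above 0 and 5 past 2 SD, against 48.2% and 17.7% of all probes. For BMS614 minus None the same list had a median of -0.007, with 3 above 0, 7 below and 2 past 2 SD. Of all probes 49.3% lay above 0 and 25.8% past 2 SD in that comparison. Upf2, which bridges the decay factors Upf1 and Upf3, was at 9.26 on None, 9.55 on AR7 and 9.62 on BMS614, so None was the lowest array. The 25 hnRNP proteins, which often oppose SR proteins at exons, had a median of -0.0165, and the 29 core spliceosome genes one of 0.0135. In the core list Prpf19, a ubiquitin ligase of the spliceosome, was higher with AR7 than BMS614 by 0.606 ± 0.086. It was the one gene there at 1.5-fold or more, and it rests on 1 probe. Its log2 signal was 9.559 on None, 9.741 on AR7 and 9.135 on BMS614, so BMS614 was the lowest array. The smallest difference in another setting was 0.534, which is under 1.5-fold.

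**Figure D5:**
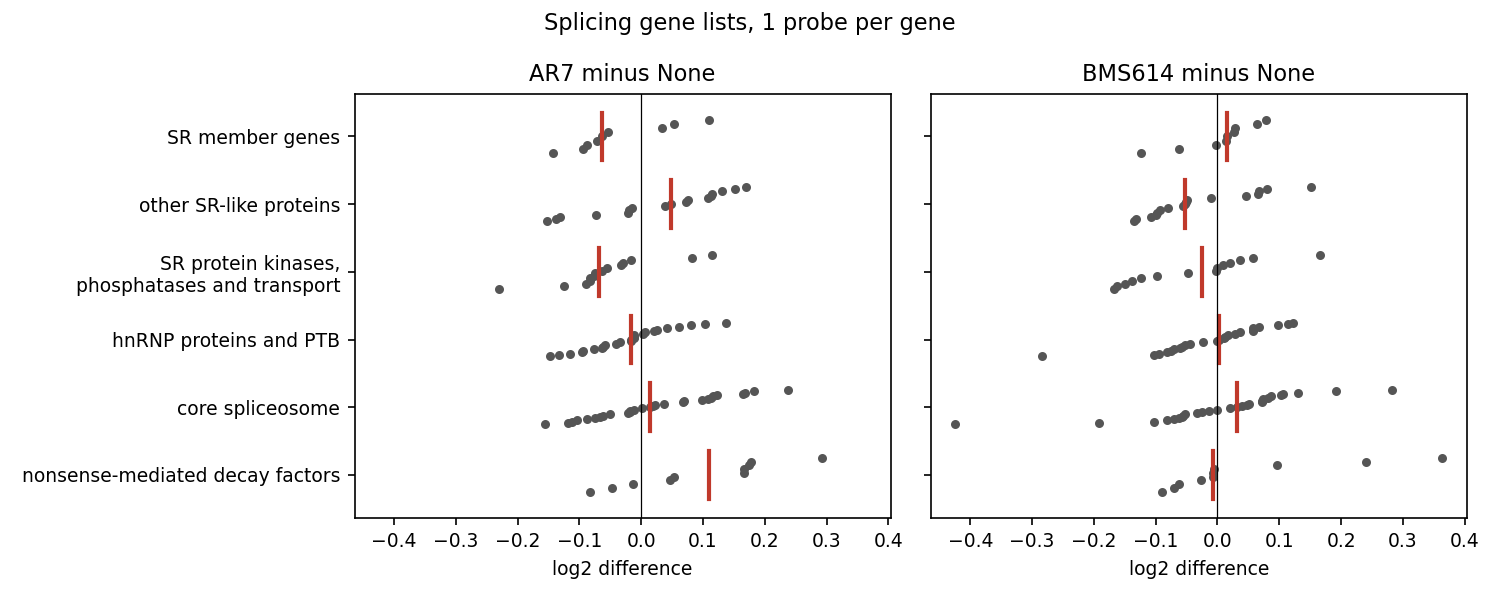
Log2 differences of single genes (dots, brightest probe each) in 6 lists of splicing genes, for AR7 minus None and BMS614 minus None, with red lines at the list medians. The medians lie within 0.11 of 0 in every list shown.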

How the data were processed

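Cells were measured on Agilent one-colour 60-mer arrays, 1 per condition. Per the file headers, spot intensity was extracted with Agilent Feature Extraction 10.7.3.1, and the authors deposited these intensity values together with a processed table. The methods name RMA, but the deposited table is on a linear scale (column medians 64.95 None, 70.68 AR7, 67.45 BMS614). Median spot intensity was therefore background-corrected by the RMA model, quantile normalized with limma 3.58.1 in R 4.3.3, put on the log2 scale and averaged over spots, leaving out control spots and outliers. Of 55681 probes, 27235 were named through RefSeq accessions (GRCm38.p6). For a 2-fold call, one or both of the arrays compared had to show the probe well above background; for a call past 2 SD, all 3 had to. The text names all members, the probes nearest to probe c of Srsf10, and the extremes of each list. Members and lists were chosen with earlier results of these data known. Scripts were tested on simulated data. With 1 array per condition, the number of arrays limits the precision. The alternatives were the processed signal and the RMA values scaled to the 75th percentile, normexp, spike-in scaling, the deposited table with a floor of 16, other thresholds and other filters. Scaling on the E1A spike-in controls alone was added after the values under all spike-in controls (E1A and ERCC) had been seen.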

Additional observations from a re-analysis of the deposited data

How the results depend on the processing

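The AR7 minus None count of 1 member probe at 2-fold became 0 with normexp and 0 at 3-fold. The AR7 minus BMS614 count of 1 became 0 with the processed signal at the 75th percentile, normexp, both spike-in scalings, the deposited table and 3-fold. The counts under spike-in scaling were taken without removing the shift of all probes; with it removed, probe c of Srsf10 differed by 1.018 under both, past 2-fold. At 3 SD the counts past the spread of repeated spots were 2 for AR7 minus None, 0 for BMS614 minus None and 3 for AR7 minus BMS614. No share of all probes at 3 SD stands beside these counts, so they are not set against one. Scaling on all 513 usable spike-in spots moved the member medians to -0.124 for AR7 minus None and 0.116 for BMS614 minus None. Scaling on the 268 E1A spots alone, chosen after the data were seen and after those values were known, gave 0.0345 for AR7 minus None. Relative to the median of all probes, which they moved by -0.0596 and 0.0988, the member median was -0.0643 under both. This holds by construction, since each scaling shifts all probes of an array by 1 amount. Of 2772 ERCC spots, 310 on None, 514 on AR7 and 555 on BMS614 were well above background, and of 350 E1A spots 278, 279 and 279. In medians and single differences, shifts over 0.1 were subtracted: -0.154 and -0.134 for AR7 minus BMS614, and 0.235 for BMS614 minus None with E1A alone. Over all comparisons and settings 59 of 324 probe differences moved by 1 SD or more, and 21 of 54 took the opposite sign under at least 1 setting. Relative to all probes, a comparison added after the data were seen, 8 of 54 took the opposite sign, and 0 of those past 2 SD did. No paired analysis was possible because None, AR7 and BMS614 had 1 array apiece, and for the same reason no replicate could be left out.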
